A study of Homo sapiens with 4 samples.

Results

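SRXN1 and 9 genes of the NFE2L2 programme were examined in SK-N-SH cells that overexpressed the long non-coding RNA AP1AR-DT. The 10 genes (SRXN1, NFE2L2, NQO1, HMOX1, GCLC, GCLM, TXNRD1, SLC7A11, PRDX1 and TXN) were taken from the table of 24014 genes by their symbol, and all 10 were found. SRXN1 entered the list because its count fell in the comparison described here, so its difference is given as a description with no test. The other 9 were chosen by their known relation to the transcription factor NFE2L2, and the question was whether they followed SRXN1 in each library and between the groups.

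NFE2L2, also called NRF2, is a transcription factor that is held low by KEAP1-directed degradation in unstressed cells. Oxidants and electrophiles release it from KEAP1, and it then binds antioxidant response elements together with small MAF proteins and raises enzymes of glutathione synthesis, thioredoxin reduction and quinone and haem breakdown. Because this control acts on the protein, the level of the NFE2L2 transcript is not a direct reading of its activity, and its targets are commonly read instead. SRXN1 (sulfiredoxin) is one such target, and it repairs peroxiredoxins whose catalytic cysteine has been over-oxidised.

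SK-N-SH is an established human neuroblastoma line in which cells of an adrenergic, neuron-like state grow beside cells of a mesenchymal state. All cells received a lentivirus: the 2 control libraries came from cells labelled wild type that carried the empty vector, and the 2 AP1AR-DT_OE libraries from cells that carried AP1AR-DT, labelled under its other name AC109347.1. For AP1AR-DT_OE 2 the labels for genotype and treatment write AC109347.2, and its title, which was followed, writes AC109347.1. The vector was a pCDH lentiviral plasmid with a puromycin resistance cassette. It was not given in the sources used here whether the cells were clones or separate cultures, nor when they were harvested, so the spread between libraries may be technical. The libraries held between 21988065 and 26184599 counts, and those of AP1AR-DT_OE held 680 and 1065 counts of AP1AR-DT, against 3 and 18 in the controls. The markers fixed for the line were 14 adrenergic and 14 mesenchymal genes, and TH, an adrenergic marker, was not found by its symbol. Of those found, 12 of 13 adrenergic and 14 of 14 mesenchymal genes had a mean normalized read count (the count divided by the size factor of the library) of at least 50.

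The transcript models at the SRXN1 locus come first because they decide what a count of SRXN1 is. SRXN1 (ENSG00000271303; chromosome 20, 646615 to 653200, GRCh38 positions as deposited) has 2 exons of 225 and 2303 bases on the minus strand. ENSG00000270299 (646626 to 675800), a gene that GENCODE marks as readthrough and lists by its identifier alone, starts in the first exon of SCRT2, a zinc finger gene, and ends in the second exon of SRXN1. Its last exon of 2292 bases lies wholly within that second exon, so that 90.7% of the 2528 exon bases of SRXN1 are also exon of the readthrough gene. Its first exon of 332 bases is exon of SCRT2 as well. The stretches that separate the models are therefore short, namely exon 1 of SRXN1 and the 90-base middle exon of ENSG00000270299. They are shown from the GRCh37 genome, 5′ to 3′ on the minus strand, as the coding part of SRXN1 exon 1 (chr20:633620-633829, with the start codon in capitals) and the middle exon, which is coding (chr20:634875-634964, no capitals).
SRXN1 exon 1: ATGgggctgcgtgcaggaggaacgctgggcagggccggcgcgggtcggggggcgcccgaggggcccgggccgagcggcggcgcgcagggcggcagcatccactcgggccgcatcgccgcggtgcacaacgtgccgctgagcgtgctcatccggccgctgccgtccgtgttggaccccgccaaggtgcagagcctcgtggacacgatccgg
ENSG00000270299 exon 2: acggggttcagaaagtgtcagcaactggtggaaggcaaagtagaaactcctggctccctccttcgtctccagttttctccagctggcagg

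SRXN1 had 2993 and 2439 normalized counts in control 1 and 2, and 321 and 315 in AP1AR-DT_OE 1 and 2. Both AP1AR-DT_OE libraries lay far below both controls, and they were close to each other. The mean fell from 2716 ± 392 (SD, n = 2) to 318 ± 4.78 (SD, n = 2), which was 8.54-fold lower. The log2 fold change of AP1AR-DT_OE over control (Log2FC) was -3.09 (SE = 0.44). ENSG00000270299 moved the other way, with raw counts of 7 and 3 in the controls against 2582 and 1902 in AP1AR-DT_OE. The controls lay under the floor of 12 counts (3 read pairs at about 4 counts each), and the mean was at least 206-fold higher in AP1AR-DT_OE, at the mean floor of the controls. SCRT2 itself had 74 and 55 raw counts in the controls against 52 and 55 in AP1AR-DT_OE, so the groups did not separate for the gene whose first exon the readthrough model shares.

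Of the counts listed under SRXN1 and ENSG00000270299 together, SRXN1 took 99.7% in control 1 (95% Wilson interval 98.9 to 99.9, on read pairs) and 99.9% in control 2 (99.3 to 99.98). It took 10.2% in AP1AR-DT_OE 1 (8.15 to 12.6) and 14.3% in AP1AR-DT_OE 2 (11.6 to 17.4). These intervals and the floor cover counting error only, since PCR copies are not independent molecules. The total at the locus did not follow SRXN1: the counts of the 3 overlapping genes summed to 3085 and 2484 normalized counts in the controls against 3210 and 2257 in AP1AR-DT_OE. The groups overlapped, and the Log2FC of the sum was -0.03 (SE = 0.45, 95% interval -0.91 to 0.85). The fall of SRXN1 therefore stood beside a rise of similar size in a model that shares most of its exon sequence, and whether reads moved between the models or transcription did was not tested. Among the other 8 genes of the table within 250 kb of SRXN1, 0 were called, against 0.137% of all genes tested (33 of 24014, DESeq2, adjusted p under 0.05). They were TRIB3, RBCK1, TBC1D20, CSNK2A1, TCF15, SLC52A3, FAM110A and RPS10L. The 5 of them with at least 50 normalized counts had a Log2FC between -0.10 (CSNK2A1) and 0.11 (TBC1D20).

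**Figure D1:**
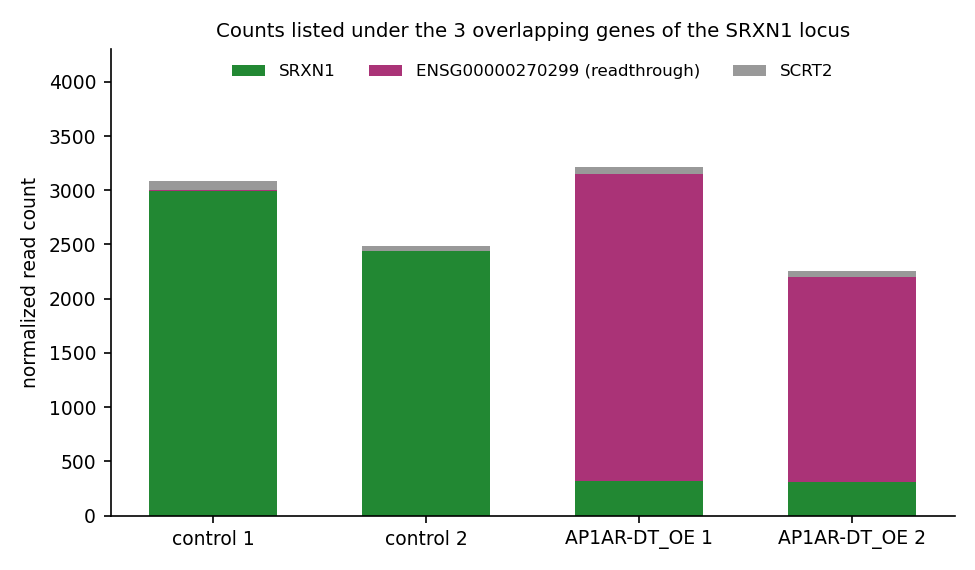
Normalized read counts (linear axis) listed under SRXN1, the readthrough gene ENSG00000270299 and SCRT2, stacked for each of the 4 libraries. The bars reach 3085 and 2484 in the controls against 3210 and 2257 in AP1AR-DT_OE, while the part under SRXN1 shrinks from 2993 and 2439 to 321 and 315.

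NFE2L2 (ENSG00000116044; chromosome 2, 177227595 to 177392697), the activator itself, had 285 and 545 normalized counts in the controls against 268 and 420 in AP1AR-DT_OE. Each AP1AR-DT_OE library was below the control of the same replicate number, but AP1AR-DT_OE 2 lay above control 1, so the groups overlapped. The Log2FC was -0.27 (SE = 0.55, 95% Wald interval -1.34 to 0.80, DESeq2 p adjusted over all genes = 1.00). Of its exon bases, 13.6% are shared with AC074286.1 on the same strand, which had a mean of 34.4 normalized counts in the controls and 38.9 in AP1AR-DT_OE.

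NQO1 (ENSG00000181019; chromosome 16, 69706996 to 69726668), the quinone reductase most often used to read NFE2L2 activity, had the highest mean normalized count of the 10 genes in both groups. It had 2605 and 3956 normalized counts in the controls against 2831 and 4661 in AP1AR-DT_OE. In both numbers the AP1AR-DT_OE library was the higher of the pair, opposite to SRXN1, and the groups overlapped (Log2FC = 0.19, SE = 0.48, 95% interval -0.74 to 1.12, adjusted p = 1.00). HMOX1 (ENSG00000100292; chromosome 22, 35380361 to 35394214), the inducible haem oxygenase, had 1596 and 997 normalized counts in the controls against 1400 and 1164 in AP1AR-DT_OE. Both AP1AR-DT_OE libraries lay between the controls. Its Log2FC was -0.02 (SE = 0.47, 95% interval -0.93 to 0.90, adjusted p = 1.00).

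The genes of glutathione synthesis were read next. GCLC (ENSG00000001084; chromosome 6, 53497341 to 53616970) and GCLM (ENSG00000023909; chromosome 1, 93885199 to 93909456) encode the catalytic and the modifier subunit of glutamate-cysteine ligase, the rate-limiting enzyme. GCLC had 63.8 and 147 normalized counts in the controls against 61.4 and 112 in AP1AR-DT_OE. GCLM had 244 and 643 in the controls against 331 and 597 in AP1AR-DT_OE. For both subunits the libraries sorted by replicate number and not by group, with the 2 libraries numbered 2 above the 2 numbered 1. The Log2FC was -0.29 for GCLC (SE = 0.71, 95% interval -1.69 to 1.11) and 0.06 for GCLM (SE = 0.59, 95% interval -1.09 to 1.22), each with adjusted p = 1.00. SLC7A11 (ENSG00000151012; chromosome 4, 138164097 to 138242349), the cystine carrier that feeds the pathway, had 68.3 and 67.9 normalized counts in the controls against 62.5 and 79.4 in AP1AR-DT_OE. The controls lay between the AP1AR-DT_OE libraries (Log2FC = 0.06, SE = 0.70, 95% interval -1.32 to 1.44, adjusted p = 1.00).

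Sulfiredoxin acts on peroxiredoxins, and these are otherwise reduced by thioredoxin. PRDX1 (ENSG00000117450; chromosome 1, 45510914 to 45542732), a cytosolic peroxiredoxin and a substrate of sulfiredoxin, had 1005 and 1616 normalized counts in the controls against 1211 and 1662 in AP1AR-DT_OE. TXN (ENSG00000136810; chromosome 9, 110243810 to 110256507), the cytosolic thioredoxin, had 85.4 and 227 in the controls against 107 and 256 in AP1AR-DT_OE. Both genes were higher in the AP1AR-DT_OE library of each number, with overlapping groups. TXNRD1 (ENSG00000198431; chromosome 12, 104215779 to 104350307), the reductase that recharges thioredoxin, had 1478 and 3407 in the controls against 1642 and 2738 in AP1AR-DT_OE. Here both AP1AR-DT_OE libraries lay between the controls. The Log2FC was 0.13 for PRDX1 (SE = 0.48, 95% interval -0.80 to 1.06), 0.22 for TXN (SE = 0.68, 95% interval -1.12 to 1.55) and -0.16 for TXNRD1 (SE = 0.53, 95% interval -1.19 to 0.88), each with adjusted p = 1.00.

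**Figure D2:**
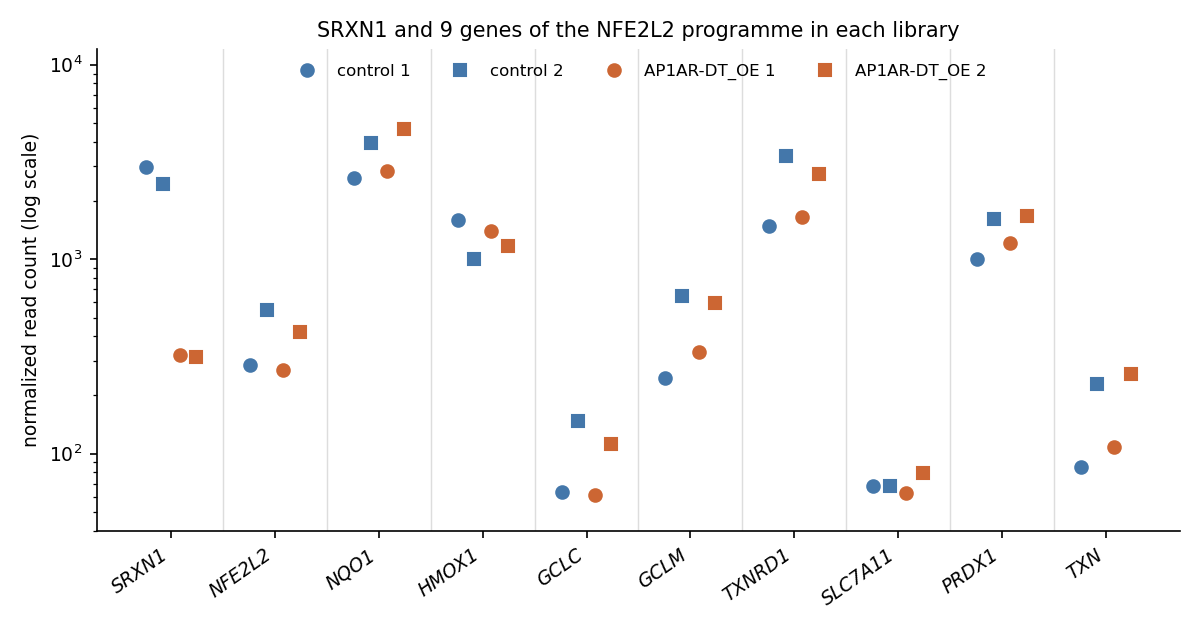
Normalized read counts (log axis) of the 10 genes, with 1 point per library, circles for replicate number 1 and squares for number 2. SRXN1 falls from 2993 and 2439 to 321 and 315, while NFE2L2, NQO1, GCLC, GCLM, TXNRD1, PRDX1 and TXN separate by replicate number in both groups.

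None of the other 9 genes was called, against 0.0541% of all genes called lower and 0.0833% called higher. At a background this low, 0 of 9 is what most lists of this size would give, so the intervals are given as well. Their Log2FC had a median of 0.06, where all genes with a mean of at least 50 had -0.02, and 4 of the 9 were below 0. The 95% intervals reached from -1.69 (GCLC) to 1.55 (TXN), and all 9 left out the -3.09 of SRXN1. That value was selected for its fall in this same comparison, so a gap to it was likely from the start. All 9 intervals crossed 0 with edges far from it, so they had to hold the -0.03 of the summed SRXN1 locus. No likeness to the locus total is read from that. Smaller shifts are within these intervals and were not detectable with 2 libraries per group in this fit, which has no term for the replicate number. For 0 of the 9 did both AP1AR-DT_OE libraries lie below both controls, and for 0 above, where 4.35% and 5.11% of the 13298 genes with a mean of at least 50 did so.

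Within the replicate numbers the log2 ratio of SRXN1 was -3.22 in number 1 and -2.95 in number 2. The other 9 genes had ratios between -0.39 and 0.44. NFE2L2 and GCLC were below 0 in both numbers, NQO1, PRDX1 and TXN were above 0 in both, and the remaining 4 changed sign between the numbers. The ratio of NFE2L2 was -0.09 in number 1 and -0.38 in number 2, and in each number its targets lay on both sides of 0. Each number held 1 library per group, so these ratios have no test.

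**Figure D3:**
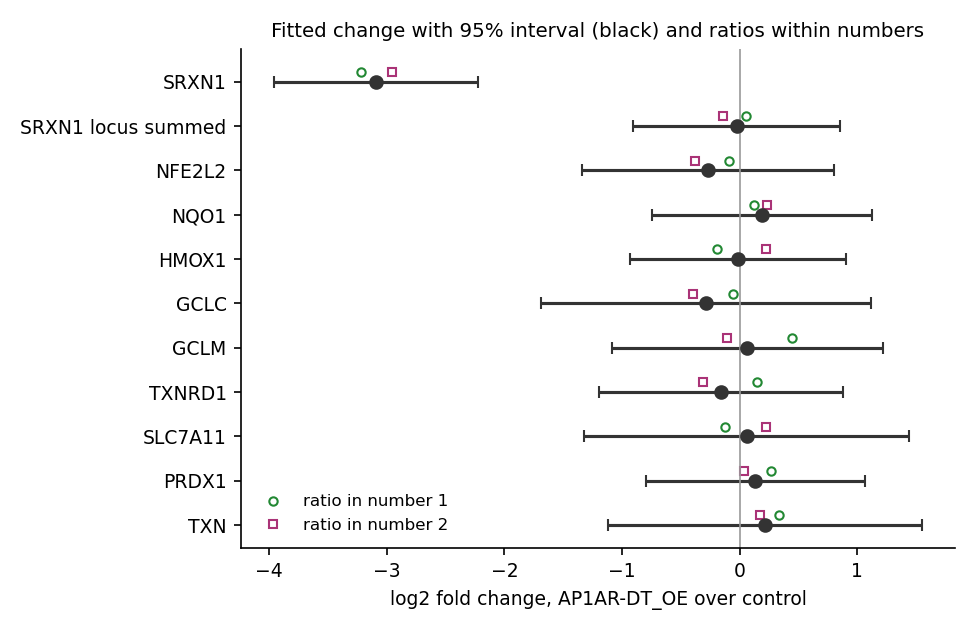
Fitted log2 fold change of AP1AR-DT_OE over control with its 95% Wald interval (black), and the log2 ratios in number 1 (circles) and number 2 (squares), for SRXN1, the summed SRXN1 locus and the other 9 genes. SRXN1 lies at -3.09, the summed locus at -0.03, and the intervals of the 9 genes all cross 0.

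What did separate the libraries for these genes was the replicate number. Of the 9 genes, 7 were higher in number 2 in both groups, against 41.4% of the genes with a mean of at least 50. The largest gap was that of TXN, 2.65-fold between the controls and 2.38-fold between the AP1AR-DT_OE libraries. GCLM had 2.64-fold and 1.80-fold, and NFE2L2 1.91-fold and 1.57-fold. HMOX1 went the other way, with log2 ratios of number 2 over number 1 of -0.68 and -0.27, and SRXN1 had -0.30 and -0.03. SLC7A11 was level in the controls (-0.01) and had 0.34 in AP1AR-DT_OE.

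GC content of the longest transcript moved with this gap. It was 58.5% for HMOX1 and 51.7% for SRXN1, and between 35.4% (SLC7A11) and 47.5% (PRDX1) for the other 8. Across the 112 genes with a mean of at least 50 and a GC value in the NFE2L2 and antioxidant lists described below, the members included, the log2 ratio of number 2 over number 1 had a Spearman's rho with GC content of -0.80 in the controls and -0.73 in AP1AR-DT_OE. The genes share the same 4 libraries and are not independent replicates. With the GC trend of each library taken out, NFE2L2 had 397 and 372 normalized counts in the controls against 344 and 343 in AP1AR-DT_OE. Its gap between the numbers was then smaller than that between the groups, and the groups no longer overlapped. TXN had 131 and 140 against 146 and 199, GCLM 369 and 402 against 447 and 467, NQO1 3190 and 3157 against 3231 and 4179, and HMOX1 1279 and 1288 against 1231 and 1278. TXN and NQO1 kept a gap between the AP1AR-DT_OE libraries, with log2 ratios of number 2 over number 1 of 0.44 and 0.37. For the remaining 4 a gap between the numbers stayed or opened in both groups. PRDX1 had 1063 and 1529 against 1231 and 1632, TXNRD1 1779 and 2776 against 1846 and 2485, and GCLC 78.0 and 118 against 70.0 and 101. SLC7A11, level in the controls before, had 108 and 40.4 against 86.5 and 60.8. On this scale 2 of the 9 lay below both controls (NFE2L2 and HMOX1) and 3 above (NQO1, GCLM and TXN), against 8.93% and 9.7% of genes. The differences stayed small, with a fitted Log2FC from -0.20 (GCLC) to 0.35 (TXN) in the GC-corrected fit, and none of the 9 was called. SRXN1 had 2712 and 2749 against 297 and 333.

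**Figure D4:**
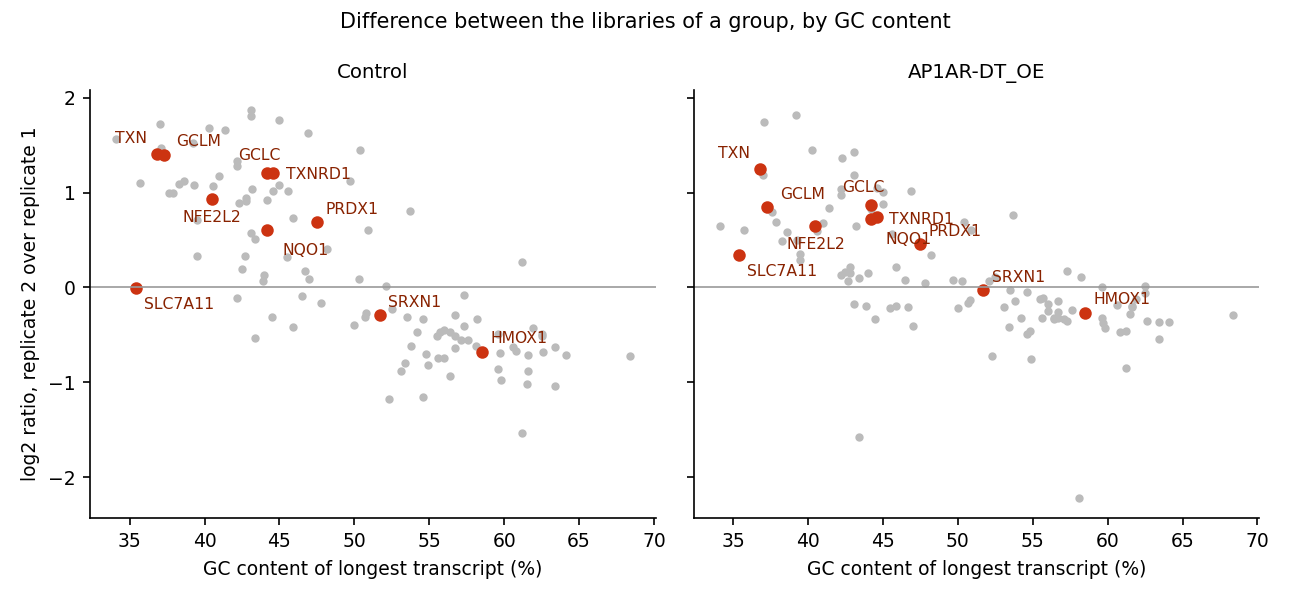
Log2 ratio of replicate 2 over replicate 1 against the GC content of the longest transcript, for controls (left) and AP1AR-DT_OE (right), with the 10 genes in red and the other listed genes in grey. The ratio falls with GC content in both groups (Spearman's rho of -0.80 and -0.73 over 112 genes), and among the 10 genes TXN lies highest and HMOX1 lowest, with SLC7A11 near 0 in the controls at the lowest GC content.

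Levels were compared between the 10 genes as normalized counts per kilobase of the canonical transcript. In the controls the means ran from PRDX1 (1387), NQO1 (1301), SRXN1 (1074), HMOX1 (834) and TXNRD1 (633) down to TXN (212), NFE2L2 (170), GCLM (90.8), GCLC (27.9) and SLC7A11 (7.06). Neighbours in this order overlapped in their libraries except at 3 steps, from TXNRD1 to TXN, from GCLM to GCLC and from GCLC to SLC7A11. In AP1AR-DT_OE the order of the other 9 was the same, and SRXN1 moved from the third place to the seventh, at 126 per kilobase and next to NFE2L2 at 141. PRDX1 and NQO1, at 1520 and 1486, again overlapped. Lengths were those of 1 transcript per gene, and other isoforms would shift these levels.

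The antioxidant response element was looked for in RefSeq promoter windows (GRCh38.p14, 250 bases before to 50 after the start site), since it is the sequence through which NFE2L2 acts. Of the 10 genes, 7 had a window (9 windows in all), and HMOX1, SLC7A11 and PRDX1 had none. The core TGACNNNGC on either strand was present in 3 of the 9 windows, in 2 genes, and in 13.3% of all 35116 windows. The matching stretches of GCLM and TXNRD1 are shown because they are the sites that these windows offer for a common element, with the core in capitals, read 5′ to 3′ on the strand of the gene; GC at the left of the capitals marks a core on the opposite strand.
GCLM, chr1:93909446-93909474, minus strand: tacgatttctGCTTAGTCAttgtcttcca
TXNRD1 first start site, chr12:104215670-104215698, plus strand: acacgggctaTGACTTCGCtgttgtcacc
TXNRD1 first start site, chr12:104215761-104215789, plus strand: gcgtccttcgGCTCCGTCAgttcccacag
TXNRD1 second start site, chr12:104286920-104286948, plus strand: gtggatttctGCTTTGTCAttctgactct
A match of these letters is a description of the window and not a bound site. The windows of SRXN1, NQO1, NFE2L2, GCLC and TXN did not hold the core. Sequence outside the windows was not searched, so a window without the core does not mean a gene without the element. GCLM and TXNRD1, whose windows held the core, had a Log2FC of 0.06 and -0.16. The 5 genes whose windows did not hold it had -3.09 (SRXN1), 0.19 (NQO1), -0.27 (NFE2L2), -0.29 (GCLC) and 0.22 (TXN).

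The comparison was widened to 8 lists of genes around the programme, with 110 genes in the table, of which 103 had a mean of at least 50. None of the 103 was called, against 0.137% of all genes, and the smallest unadjusted p-value was 0.172 (CBR1). Their Log2FC ran from -0.76 to 0.59 with a median of 0.02. Both AP1AR-DT_OE libraries lay below both controls for 3 of them (GSK3B, ABCB6 and CHAC1, 2.91%) and above for 7 (MSRB2, PGD, SLC11A2, CBR1, CBR3, GSTO1 and PSAT1, 6.8%), near the 4.35% and 5.11% of all genes. Within the numbers, 62 of the 103 had ratios of opposite sign.

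Among the regulators and partners of NFE2L2, 0 of 15 were called, and the 13 with a mean of at least 50 had a median Log2FC of -0.07. KEAP1, the adaptor that marks NFE2L2 for degradation and named here for that role, had 6244 and 3916 normalized counts in the controls against 5852 and 4232 in AP1AR-DT_OE, with both AP1AR-DT_OE libraries between the controls. The lowest were NFE2L3, a relative of NFE2L2, at -0.21 and GSK3B, a kinase that marks NFE2L2 for another ligase, at -0.20. The highest were MAFF, a small MAF partner, at 0.09 and DPP3, a KEAP1-binding protease, at 0.02.

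Of the enzymes of glutathione synthesis and recycling, 0 of 14 were called (median 0.06 over 13), with GPX8 (-0.21) and GLRX (-0.07) at the low end and ESD (0.27) and GPX7 (0.29) at the high end. Of the remaining thioredoxin and peroxiredoxin genes, which include further substrates of sulfiredoxin, 0 of 18 were called (median -0.02). The sestrins SESN3 (-0.76, SE = 0.90) and SESN1 (-0.28) were lowest, and NXN (0.15), a thioredoxin relative, and MSRB2 (0.19), a methionine sulfoxide reductase, highest. The 4 superoxide and hydrogen peroxide enzymes, SOD2 (-0.16), CAT (-0.05), SOD3 (0.07) and SOD1 (0.15), were not called. The Log2FC of the genes with a mean of at least 50 in these 3 lists lay between -0.76 and 0.29.

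In the NADPH supply list 0 of 11 were called (median 0.10). PGD, an enzyme of the pentose phosphate pathway, was highest, with 804 and 646 normalized counts in the controls against 1005 and 895 in AP1AR-DT_OE (Log2FC = 0.39, SE = 0.45), followed by MTHFD2 (0.26), and NNT (-0.20) and ME2 (-0.10) were lowest. In the haem and iron list 0 of 10 were called (median 0.01), from ABCB6 (-0.58) and the iron exporter SLC40A1 (-0.22) to the ferritin chain FTH1 (0.19) and the iron carrier SLC11A2 (0.46). ABCB6, a porphyrin transporter, had 221 and 184 in the controls against 141 and 129 in AP1AR-DT_OE, without overlap. In the detoxification list 0 of 28 were called (median 0.02). CBR1, a carbonyl reductase, had 1353 and 1363 in the controls against 1995 and 2090 in AP1AR-DT_OE, also without overlap. Its Log2FC was 0.59 (SE = 0.43, 95% interval -0.26 to 1.43, adjusted p = 1.00). Also at the ends of this list were GSTM2 (0.38), PTGR1 (-0.53) and MGST1 (-0.69). CBR3, another carbonyl reductase (0.24), and GSTO1, a glutathione transferase (0.13), lay above both controls as well. In these 3 lists, with 11, 10 and 24 genes at a mean of at least 50, 1 gene thus lay below both controls (ABCB6) and 5 above. Of all genes at that mean, 4.35% lay below and 5.11% above.

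SLC7A11 is also raised by ATF4, the factor of the amino acid response, so that list was read beside it. None of its 10 genes was called (median 0.01), with DDIT4 (-0.47) and CHAC1 (-0.42) lowest and PHGDH (0.22) and PSAT1 (0.22) highest.

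**Figure D5:**
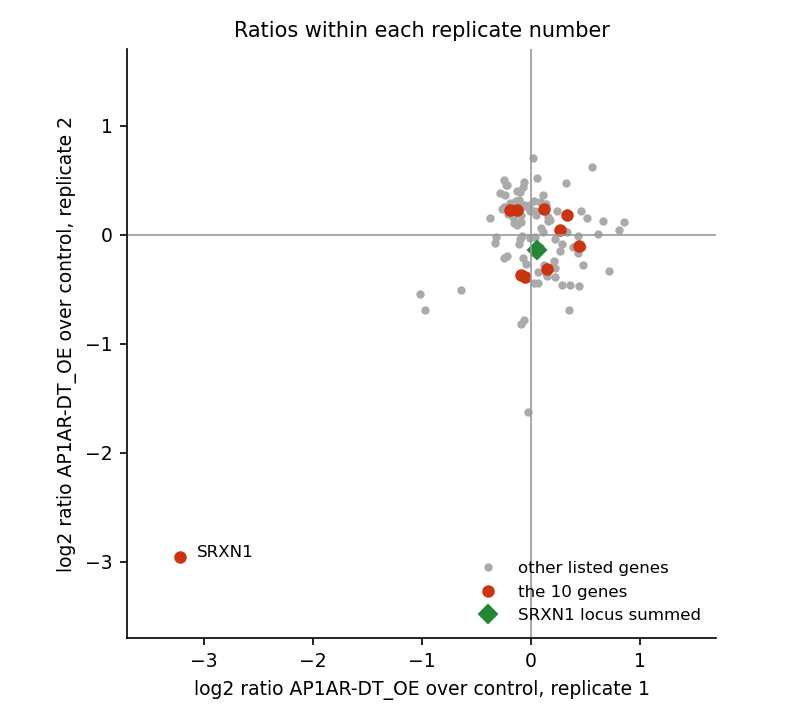
Log2 ratio of AP1AR-DT_OE over control in replicate number 1 (x axis) and number 2 (y axis) for the 10 genes (red), the other 103 listed genes (grey) and the summed SRXN1 locus (green). SRXN1 stands alone at -3.22 and -2.95, and the summed locus lies at 0.06 and -0.14 among the rest.

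The genes whose pattern was most like that of SRXN1 came from elsewhere. Likeness was the root mean square difference over the 4 libraries of log2(normalized count + 1), centred on each gene's mean, among genes with a mean of at least 50. The nearest were the pseudogene ALG1L9P (0.22), RAD9A (0.32), the non-coding ZBED5-AS1 (0.38), FAM229A (0.47) and TMEM110 (0.69). A flat profile would be at 1.55, and the other 9 genes lay around it, between 1.51 (NFE2L2) and 1.83 (TXN), with NFE2L2 at place 2506 of 13297. SRXN1 was chosen for its fall in these same libraries, so its nearest genes had to be others that fell strongly. A gene with a Log2FC near 0 had to lie near the flat profile. The distances of the 9 genes therefore restate their Log2FC and are not a separate result. TMEM110 resembled SRXN1 in its annotation too, since 86.3% of its exon bases are shared on the same strand, mostly with the readthrough gene TMEM110-MUSTN1. TMEM110 had 1441 and 1216 raw counts in the controls against 375 and 319 in AP1AR-DT_OE, where TMEM110-MUSTN1 had 66 and 448, then 1184 and 847. ALG1L9P shares 20.9% of its exon bases on the same strand. RAD9A, ZBED5-AS1 and FAM229A had no such sharing on their own strand, and 16.7% of all genes matched to the annotation had some.

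Markers of the 2 cell states of the line were read beside these values. None of the 13 adrenergic and none of the 14 mesenchymal genes was called, against 0.137% of all genes. At that share most lists of this size would have 0 called. Summed over the list, the adrenergic genes had 32573 and 26056 normalized counts in the controls against 31507 and 28727 in AP1AR-DT_OE. The mesenchymal genes had 221613 and 156738 in the controls against 215493 and 172142 in AP1AR-DT_OE. Both sums sorted by replicate number, with number 1 the higher. Abundant genes weigh most in them, and VIM alone had 93086 and 67917 in the controls. Single genes did not all follow the sums. Of genes with a mean of at least 50, 3 of 12 adrenergic and 6 of 14 mesenchymal were higher in number 2 in both groups, against 41.4% of all genes at that mean. PRRX1, a mesenchymal transcription factor, had the lowest unadjusted p of the marker genes, with 2770 and 11358 normalized counts in the controls against 1241 and 2246 in AP1AR-DT_OE. Its Log2FC was -2.02 (SE = 0.61, adjusted p = 0.43), which did not pass the test. The mesenchymal list as a whole had a median Log2FC of -0.08, with SNAI2 (-0.41) next lowest and COL1A1 (0.14) and COL1A2 (0.51) highest. The adrenergic list had a median of 0.05, with ISL1 (-0.07) and GATA3 (-0.04) lowest and DBH (0.23) and HAND1 (0.33) highest. The part of cell state in the values of the 10 genes was not tested, and in bulk RNA fewer cells of a type and less RNA per cell cannot be told apart.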

How the data were processed

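RNA-seq was performed on total RNA of 4 SK-N-SH libraries, 2 control and 2 AP1AR-DT_OE, grouped and numbered by their titles. According to the paper's methods, the authors aligned 150-base paired reads to hg19 with HISAT2, ran StringTie and extracted counts with its Python script. The submitters' processing notes name TopHat2 2.0.4, HTSeq, Cuffdiff and edgeR 2.6.12 instead, and which set made the table was not resolved. The deposited counts are whole numbers without normalization. Low values piled up at 4 (3287 entries, against 2136 at 3 and 1509 at 5), so a read pair was taken as about 4 counts and low values are less precise than their counts. The annotation version and the use of strand in counting are not given in the sources used here, so counts of overlapping genes are uncertain. The table also holds the authors' own fold changes and p-values, which were not used. Gene positions in the table are GRCh38.

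Counts were tested with DESeq2 1.42.0 in R 4.3.3 (median-of-ratios size factors, Wald test, two-sided, no covariate, Benjamini-Hochberg over all 24014 genes, called at an adjusted p under 0.05). Alternatives used edgeR 4.0.16, TMM factors, a count filter, no independent filtering, the replicate number as a block, a GC correction (lowess, span 0.3), counts divided by 4, and each library left out. GC content, exon lengths and exon overlap came from GENCODE v44 on GRCh37, matched by ID for 23954 genes. The procedure was tested on simulated counts, where all changed genes kept their sign but more of the calls were false than the adjusted threshold allows, so the calls across all genes are a loose background. Libraries of a group were not copies of each other, with a chi-square per degree of freedom of 155 between the controls and 69.0 between the AP1AR-DT_OE libraries. The 10 genes, the lists and the alternatives were chosen with earlier results of these data known. Genes named were the 10, those within 250 kb of SRXN1, the called members and 2 highest and 2 lowest Log2FC of each list among genes with a mean of at least 50, and the 5 nearest to SRXN1 in pattern. KEAP1, AC074286.1, TMEM110-MUSTN1 and VIM were added after their values were seen, as were the genes of a list that lay outside the range of both controls.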

Additional observations from a re-analysis of the deposited data

How the results depend on the processing

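The Log2FC of SRXN1, -3.09 as reported, lay between -3.22 and -2.94 with 1 library removed. The summed locus, at -0.03 as reported, lay between -0.31 and 0.19 with 1 library removed and between -0.07 and -0.02 otherwise. Of the 117 values of the other 9 genes under the alternatives, 19 differed in sign from the reported ones and 0 were called, with a lowest adjusted p of 0.999. Turning off independent filtering left every value as it was, so 9 of the 117 could not differ. HMOX1 had a Log2FC of 0.0174 with the replicate block and 0.0105 with the edgeR test with replicate block. With 1 library removed, and the lone sample of its group assumed to vary like the other group, the Log2FC went from -0.67 to 0.28 for NFE2L2, from -0.23 to 0.54 for NQO1 and from -0.31 to 0.36 for HMOX1. It went from -0.80 to 0.46 for GCLC, from -0.47 to 0.94 for GCLM, from -0.64 to 0.58 for TXNRD1, from -0.14 to 0.22 for SLC7A11, from -0.17 to 0.53 for PRDX1 and from -0.56 to 1.10 for TXN. Of these 9 genes, 0 lay below and 0 above both controls with size factors and with TMM factors, and 2 and 3 did with GC-corrected counts.

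The count of called genes, 33 as reported, was 0 when the test, the scaling and the filter were changed together (edgeR quasi-likelihood with TMM factors on 17027 genes, 112 of them at an unadjusted p under 0.05 against 196 by DESeq2). It was 44 with the same edgeR test and the replicate block. It was 15 with counts divided by 4, 55 with GC correction, 60 with GC correction and replicate block, and from 45 to 90 with 1 library removed. With the replicate block 37 genes were called, of which 16 were shared with the 33, and none was among the 9. Libraries with the same number deviated together from their group means (correlation of 0.49 across 13298 genes), but no label ties the number to a batch. The cause was not tested. With GC correction and replicate block the SE of the 9 genes ran from 0.16 (NQO1) to 0.69 (SLC7A11), where the reported fit had 0.48 and 0.70. The width of the intervals thus depended on the fit. With 2 libraries per group, the reported fit could not detect shifts smaller than the distance from an estimate to the edge of its interval.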
